A study of Homo sapiens with 12 samples.

Results

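The subject is the KEAP1-NRF2 programme of A549 cells, a long-established line grown from a human lung adenocarcinoma, a tumour of epithelial origin. It is described by 9 genes out of 57756 features in the deposited count table. The members were set by name: KEAP1, NFE2L2, AKR1B10, AKR1C1, AKR1C2, AKR1C3, NQO1, GCLM and TXNRD1, each taken from the row that carries its own gene symbol, and each symbol had 1 row. The rule itself uses no measured value, though earlier results of these data were known when the genes were chosen. The series holds 12 RNA sequencing libraries of A549 cells. In 6 of them the cells had received a scrambled siRNA that matches no intended transcript (control), and in 6 they had received an siRNA against SLC7A5, a carrier of large neutral amino acids (SLC7A5_KD). All 12 libraries share the cell line, siRNA transfection, oligo-dT selection of mRNA, paired-end reading and a single batch label. The dose and time of the siRNA, the number of siRNA sequences and whether replicates were separate cultures are not given in the sources used here, so a p-value here speaks of the spread from library to library, which may be technical.

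KEAP1 is the adapter that holds the transcription factor NRF2, the product of NFE2L2, at a ubiquitin ligase built on CUL3, so that NRF2 is made and destroyed continuously. Oxidants and electrophiles react with cysteines of KEAP1, NRF2 then escapes destruction, pairs with a small MAF protein and binds antioxidant response elements near genes for detoxification, glutathione synthesis and thioredoxin reduction. A549 cells are known to carry a mutant KEAP1, and as background they are known for strong, lasting NRF2 activity with abundant NQO1 and aldo-keto reductases.

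Counts were low in all libraries. Total counts lay between 1896100 and 2109699 per library, and the 9 members together held 373 to 476 counts in each. The targeted gene, SLC7A5, was not lower in the libraries labelled SLC7A5_KD: in CPM, counts scaled by library total, its means were 27.97 ± 3.34 in control against 31.47 ± 5.59 in those (SD, n = 6 each). The exact two-sided permutation test over its 924 arrangements gave p = 0.1948, and without SLC7A5_KD replicate 6 the log2 fold change went from 0.167 to 0.07. Since SLC7A5 does not bear out the label, that group is called by its label throughout. In bulk RNA such as this, fewer cells of a type and less RNA per cell cannot be told apart. Markers of the cell line's epithelial lineage did not stand above those of all other cell types compared. The 10 epithelial and lung markers had a median of 9.06 counts per kb of exon, against 7.38 for 6 fibroblast, 10.25 for 6 leukocyte and 11.12 for 5 endothelial markers, and none of these markers was at 0 in all libraries. Single epithelial and lung markers ran from 3.92 for KRT8 to 17.92 for KRT7, and 4 of the 10 lay above the median protein-coding gene. The summed epithelial markers ranged from 151.8 to 187.4 CPM in control and from 157.7 to 182.5 CPM in the other group.

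Sequences are shown first, because they bear on which values can be read gene by gene. AKR1C1, AKR1C2, AKR1C3 and the liver enzyme AKR1C4 are neighbours on chromosome 10 that arose by duplication. Their coding sequences are each 972 bases long (GENCODE release 29, GRCh38). Those of AKR1C1 and AKR1C2 differ at 19 positions, an identity of 98.05%, and hold an identical run of 189 bases. AKR1C3 differs from AKR1C1 at 79 positions and AKR1C4 from AKR1C1 at 112. The 60 bases from coding position 103 to 162, counted from the A of the start codon, hold 10 of the 19 differences between AKR1C1 and AKR1C2, more than any other stretch of that length. They are shown 5′ to 3′, with the 16 positions at which the 4 genes are not all alike in capitals.
AKR1C1: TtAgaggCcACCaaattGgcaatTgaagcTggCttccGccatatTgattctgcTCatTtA
AKR1C2: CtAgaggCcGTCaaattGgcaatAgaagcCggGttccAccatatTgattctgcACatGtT
AKR1C3: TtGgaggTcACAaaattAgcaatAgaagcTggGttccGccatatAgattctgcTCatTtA
AKR1C4: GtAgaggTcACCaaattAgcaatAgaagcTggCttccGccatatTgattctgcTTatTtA
Outside such stretches a read from one of these genes can match another. Of all 50-base words in the longest RefSeq-matched transcript of AKR1C2, 52.17% occurred in a transcript of another gene, 50.82% in AKR1C1. The share was 28.68% for AKR1C1, 12.06% for AKR1C3 and 17.39% for AKR1B10, the last mainly with its neighbour AKR1B15 and the pseudogene AKR1B10P1. It was 1.19% for GCLM and 0.98% for NQO1, and no such word was found for KEAP1, NFE2L2 or TXNRD1. Counts of the 4 aldo-keto reductases among the members are thus uncertain as values of single genes.

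The core of the antioxidant response element was searched in RefSeq promoter windows (GRCh38.p14), which run from 250 bases before to 50 bases after the start site. The motif was TGACNNNGC, on both strands. A window was given for 8 of the 9 members (AKR1B10 had none), and 2 of the 8 held the motif, GCLM and TXNRD1. The share among protein-coding genes was 14.29% of 15843 windows, and 10 of 39 windows of other NRF2 targets held it (25.64%). The matches are shown with 10 bases on each side, 5′ to 3′ on the strand of the gene, with the motif in capitals, because these are the members whose window carries the letters that NRF2 is known to read.
GCLM, chr1:93909446-93909474, minus strand, motif read on the opposite strand: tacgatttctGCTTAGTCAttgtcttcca
TXNRD1, chr12:104215670-104215698, plus strand: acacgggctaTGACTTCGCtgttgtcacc
TXNRD1, chr12:104215761-104215789, plus strand, motif read on the opposite strand: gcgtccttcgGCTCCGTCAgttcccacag
A match describes letters only. Elements farther from the start site lie outside these windows.

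Per length of exon, the counts of the NRF2 programme were not high in this table, but the table may not measure transcript levels. Genes that nearly all cells use strongly had a median of 7.75 counts per kb of exon, below the 12.57 of olfactory receptor genes, and SLC7A5 was not lower under its own siRNA. In mean count, not scaled by length, the order was the reverse, with medians of 31.4 and 14.7. Single olfactory receptor genes ranged from 1.78 to 177.55 counts per kb. These list medians per kb were taken with the union of annotated exons alone. Every level below carries the doubt over what the table measures, and so does every difference between the groups. Over the 12 libraries, the mean count rose with the length of annotated exons across 18591 protein-coding genes (Spearman's rho 0.784 across genes, which are not independent replicates), so levels are compared per kb of exon. The median protein-coding gene held 11.42 counts per kb, and the 5th to the 95th percentile ran from 3.85 to 26.81. The 9 members had a median of 8.62 counts per kb, 0.754 times the median of all protein-coding genes, and in single libraries this ratio ranged from 0.661 to 0.862. Of the 9 members, 2 lay above the median of all genes, AKR1B10 and GCLM, and 0 lay among the top 5%. The length used is the union of all exons in GENCODE release 29. With the exons of RefSeq-matched transcripts alone the ratio was 0.909, with 1 member above the median. With the longest transcript it was 0.965, with 4 members above.

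**Figure D1:**
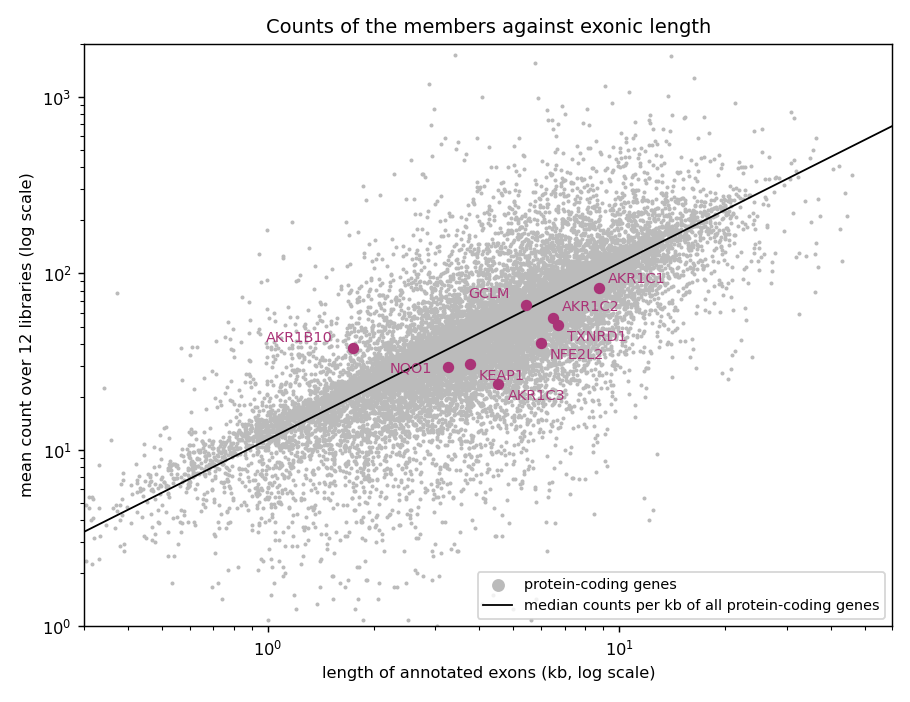
Mean count over the 12 libraries (y axis, log scale) against the length of annotated exons in kb (x axis, log scale) for protein-coding genes (grey) and the 9 members (purple), with a line at the median of 11.42 counts per kb. AKR1B10 and GCLM lie above the line and the other 7 members below it.

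AKR1B10, which reduces retinaldehyde and other aldehydes (chromosome 7, 134527567 to 134541412, RefSeq GRCh38.p14), had the highest level per length at 21.79 ± 2.98 counts per kb (SD over 12 libraries), the 92.4th percentile of protein-coding genes. Its exons are short, 1744 bases in all, and its mean count of 38 was at the 42.0th percentile. GCLM, the modifier subunit of the enzyme that makes the glutathione precursor gamma-glutamylcysteine (chromosome 1, 93885199 to 93909430), followed at 12.24 ± 2.31 counts per kb. The step from AKR1B10 to GCLM was larger than their spreads.

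From GCLM down, neighbours in the order did not differ beyond their spread, GCLM and AKR1C1 included. AKR1C1, which inactivates progesterone (chromosome 10, 4963415 to 4983283), stood at 9.40 ± 1.52 counts per kb. NQO1, a quinone reductase and a standard readout of NRF2 activity (chromosome 16, 69709401 to 69726560), stood at 9.06 ± 1.21 counts per kb, the 30.6th percentile. AKR1C2, which reduces dihydrotestosterone (chromosome 10, 4987775 to 5018000), stood at 8.62 ± 1.06 counts per kb. These 3 enzymes lay below the median gene, at the 33.0th, 30.6th and 27.6th percentiles. KEAP1 itself (chromosome 19, 10486125 to 10503356) stood at 8.20 ± 1.89 counts per kb. TXNRD1, the cytosolic thioredoxin reductase (chromosome 12, 104215779 to 104350307), stood at 7.59 ± 1.24 counts per kb. NFE2L2, the gene of NRF2 (chromosome 2, 177230303 to 177264727), stood at 6.74 ± 1.26 counts per kb. AKR1C3, which makes testosterone and prostaglandin F (chromosome 10, 5048781 to 5107686), was lowest at 5.22 ± 1.4 counts per kb, the 9.2nd percentile. The place of several members depended on the length used. With the longest transcript, NFE2L2 went to the 58.5th percentile and AKR1C2 to the 65.4th, both above the median gene, and AKR1C3 to the 40.7th. With RefSeq-matched exons these 3 stood at the 24.5th, 34.4th and 26.3rd percentiles, and GCLM fell below the median gene, to the 47.8th. NQO1 fell to percentile 16.1 with the longest transcript and 11.1 with RefSeq-matched exons. In the same order, KEAP1 went from percentile 24.8 to 17.0 and 10.4, and AKR1C1 from 33.0 to 27.5 and 22.9. AKR1B10 went from 92.4 to 88.5 and 86.2, and TXNRD1 from 21.1 to 24.0 and 13.7.

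Other NRF2 targets were spread to both sides of the members' range. Of 53 further targets listed from general knowledge of the pathway, 52 had a length, with a median of 9.82 counts per kb, and 20 lay above the median of all genes. ABCC4, an exporter of organic anions, was highest at 28.66 counts per kb, followed by MGST1, a membrane glutathione transferase, at 23.38. SLC7A11, the cystine carrier that feeds glutathione synthesis, stood at 15.97 counts per kb. GCLC, the catalytic partner of GCLM, stood at 5.76 counts per kb. HMOX1, which breaks down heme, stood at 9.81 counts per kb. FTH1, the ferritin heavy chain, was lowest at 1.48 counts per kb, and its many processed pseudogenes make that count uncertain. By group, the median was 9.33 counts per kb for 14 glutathione and thioredoxin genes, 7.15 for 6 genes of NADPH supply, 9.92 for 12 detoxification enzymes, 9.52 for 6 heme and iron genes, 12.66 for 6 efflux transporters and 11.85 for 8 targets of other kinds. The last 2 groups had a median above that of all genes.

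Relatives and reference genes were set beside the members. AKR1C4, used in liver, stood at 7.31 counts per kb, between TXNRD1 and NFE2L2. AKR1D1, a bile acid enzyme of liver, stood at 12.23 counts per kb, close to GCLM. The 8 aldo-keto reductases outside the members had a median of 11.6 counts per kb. Their range ran from 6.33 for AKR1B1 to 23.34 for AKR1E2, which stood above AKR1B10. The 17 partners and regulators of NRF2 had a median of 9.99, with MAFG, a small MAF partner, at 22.05 and SQSTM1, which draws KEAP1 into autophagy, at 2.5. Among the 20 ubiquitous genes, GAPDH stood at 7.18 counts per kb. Among 20 genes of other tissues the median was 11.93 counts per kb and the range 4.79 to 19.06. The olfactory receptor genes, which serve smell, numbered 379. Apart from AKR1B10, the members thus lay within the range of these genes of other tissues.

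**Figure D2:**
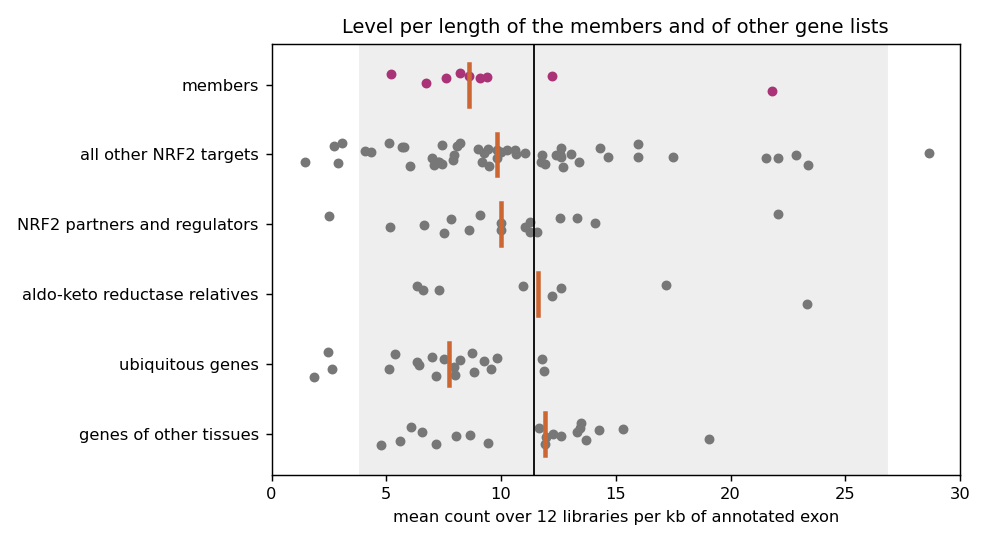
Mean count over the 12 libraries per kb of annotated exon (x axis) for each gene (points) of 6 lists (y axis), with the list median (orange bar), the median of all protein-coding genes (black line) and their range from the 5th to the 95th percentile, 3.85 to 26.81 (grey band). The members center on 8.62, other NRF2 targets on 9.82, ubiquitous genes on 7.75 and genes of other tissues on 11.93 counts per kb.

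The second question is whether the programme differed between the groups. The test was edgeR's quasi-likelihood test with Benjamini-Hochberg adjustment over all 35754 features that passed its filter on low counts, and all 9 members passed it. It called 0 of 9 members at an adjusted p under 0.05, where the share called over all features was 0.0%. Before adjustment, 0 of 9 members and 4.58% of all features had a p under 0.05, and DESeq2 and limma voom also called 0 members (0.00175% and 0.0028% of their features). The log2 fold change was positive for 6 members and negative for 3, where 49.7% of all features were positive, and its median was 0.022 against -0.001 over all features. In 0 of 9 members did the 6 libraries labelled SLC7A5_KD lie wholly above or below the 6 controls, a pattern that 0.185% of all features showed. For no member did the 95% interval reach beyond 1.42-fold in either direction.

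**Figure D3:**
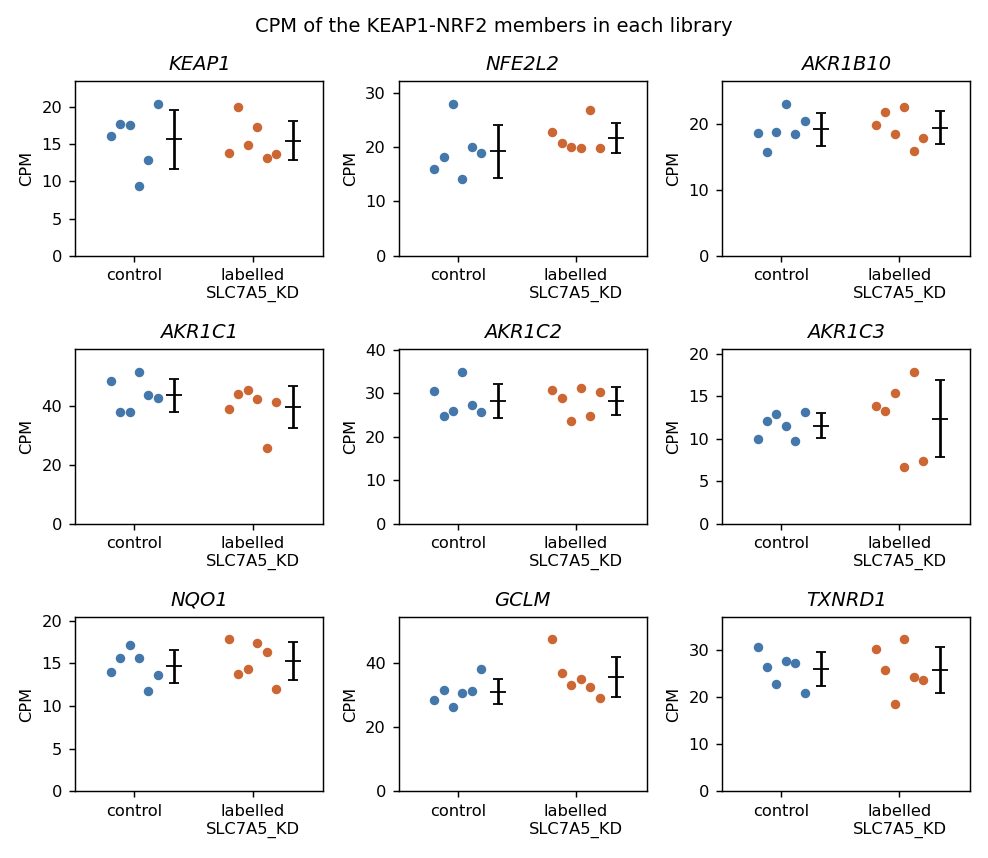
CPM (y axis, from 0) of the 9 members in each of 6 control libraries (blue) and 6 libraries labelled SLC7A5_KD (orange), with mean and SD in black. The groups overlap in all 9 panels, and the low orange point of AKR1C1 is replicate 5 at 25.84 CPM.

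The sensor and the factor are given first. KEAP1 held 18, 33 and 42 counts in control (lowest, median and highest) and 25, 28.5 and 42 in the libraries labelled SLC7A5_KD. On the CPM scale that was 15.66 ± 3.94 and 15.46 ± 2.64 (SD, n = 6 each), and the lowest value, 9.40 CPM, was in control replicate 4. The controls spread more widely, from 9.40 to 20.4 CPM against 13.18 to 19.91, and enclosed the other group, with a log2 fold change of -0.02 (standard error 0.17) and an adjusted p of 0.998 in edgeR. NFE2L2 held 27, 37.5 and 54 counts in control and 38, 41.5 and 51 in the libraries labelled SLC7A5_KD. Its level was 19.21 ± 4.79 and 21.71 ± 2.77 CPM (SD, n = 6 each). All 6 libraries labelled SLC7A5_KD lay above the control median of 18.55 CPM, but the highest library of all was control replicate 3 at 27.98 CPM, so the groups overlapped. The log2 fold change of 0.18 (standard error 0.145) had an adjusted p of 0.998 in edgeR, and without control replicate 3 it was 0.312, with an unadjusted p of 0.031 and an adjusted p of 1. It was 0.106 without control replicate 4 and 0.111 without SLC7A5_KD replicate 5.

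Among the aldo-keto reductases, AKR1B10 held 31, 36.5 and 44 counts in control and 30, 38 and 46 in the libraries labelled SLC7A5_KD. The means were 19.11 ± 2.43 and 19.35 ± 2.51 CPM (SD, n = 6 each), with 3 of 6 of the latter above the control median. Its counts varied less between libraries than those of most members. The dispersion index, which compares the spread of counts with that of counting noise alone (about 1), was 0.57 for AKR1B10, with a median of 1.1 over all features tested. The 5th to the 95th percentile over those features ran from 0.37 to 2.39, and all 9 members lay within it. AKR1C1 held 73, 86.5 and 99 counts in control and 49, 81 and 93 in the libraries labelled SLC7A5_KD. It stood at 43.72 ± 5.62 and 39.71 ± 7.15 CPM (SD, n = 6 each), and replicate 5 of the latter was low at 25.84 CPM while the others lay at 39.08 to 45.53. The log2 fold change was -0.14 (standard error 0.11, edgeR adjusted p 0.998), without that library it was -0.038, and without control replicate 4 it was -0.08. AKR1C1 had the largest dispersion index of the members, 1.93.

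AKR1C2 held 49, 53 and 67 counts in control and 46, 59.5 and 62 in the libraries labelled SLC7A5_KD. Its means were 28.19 ± 3.90 and 28.23 ± 3.26 CPM (SD, n = 6 each), a difference far inside the spread of either group. AKR1C3 held 19, 23 and 27 counts in control and 13, 28 and 34 in the libraries labelled SLC7A5_KD. Those 6 libraries reached both further down and further up than the controls. Replicates 4 and 6 had 6.63 and 7.33 CPM, below all controls (9.75 to 13.11), and the other 4 lay at 13.27 to 17.93, above all of them. The group means, 11.57 ± 1.43 and 12.39 ± 4.50 CPM (SD, n = 6 each), thus hide a wider spread, and the difference in spread was not tested. Its log2 fold change, 0.10, was the least precise of the members (standard error 0.20). Since AKR1C1, AKR1C2 and AKR1C3 can share reads, their counts were also summed, a step added after the values were seen. The control libraries had a sum of 83.48 ± 8.78 CPM and the other group one of 80.33 ± 6.37 CPM (SD, n = 6 each). The log2 fold change was -0.05 with a 95% interval of -0.20 to 0.10 and an adjusted p of 0.998 in edgeR.

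The enzymes of quinone, glutathione and thioredoxin reduction came last. NQO1 held 23, 29 and 33 counts in control and 23, 30 and 36 in the libraries labelled SLC7A5_KD. Its level was 14.64 ± 1.88 and 15.27 ± 2.26 CPM (SD, n = 6 each). Its log2 fold change was 0.06 (standard error 0.14), and leaving out one library at a time gave 0.011 (without control replicate 5) to 0.12 (without SLC7A5_KD replicate 6). The lowest count was the same in each group, and the dispersion index of 0.53 was the smallest of the members. GCLM held 51, 60 and 79 counts in control and 56, 67 and 96 in the libraries labelled SLC7A5_KD. It stood at 31.21 ± 4.04 and 35.82 ± 6.27 CPM (SD, n = 6 each), and 5 of 6 libraries labelled SLC7A5_KD lay above the control median of 31.06 CPM. The highest value, 47.48 CPM in replicate 1, lay above all controls, and the highest control, replicate 6 at 38.36 CPM, lay above the other 5. GCLM had the largest log2 fold change of the members, 0.20 with a 95% interval of -0.04 to 0.44, an unadjusted p of 0.0984 and an adjusted p of 0.998 in edgeR. Without control replicate 6 the unadjusted p was 0.0318 (log2 fold change 0.271), without SLC7A5_KD replicate 6 it was 0.0446 (0.25), and both adjusted p were 1. Without SLC7A5_KD replicate 1 the log2 fold change was 0.102, with an unadjusted p of 0.371 in edgeR. TXNRD1 held 43, 52.5 and 61 counts in control and 36, 50 and 63 in the libraries labelled SLC7A5_KD. The means were 25.89 ± 3.51 and 25.69 ± 4.93 CPM (SD, n = 6 each), and the range of the controls lay wholly inside that of the other group.

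**Figure D4:**
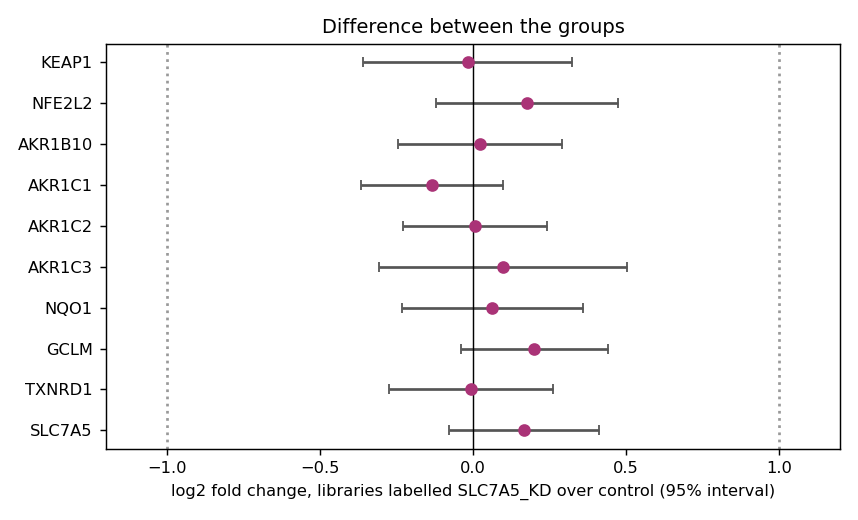
Log2 fold change of the libraries labelled SLC7A5_KD over control (x axis) with its 95% interval from edgeR for the 9 members and SLC7A5, with dotted lines at a 2-fold difference. All 10 intervals include 0, and the intervals of the members end within 0.504 of it.

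Single values were also tested with an exact two-sided permutation test of CPM, whose smallest possible p is 0.00216. The members' p ran from 0.158 for GCLM to 0.987 for AKR1C2, and adjusted over the 9 members and SLC7A5 the smallest was 0.8332. The 7 NRF2 targets among the members summed to 174.3 ± 12.5 CPM in control and, in the other group, to 176.5 ± 16.2 CPM (SD, n = 6 each).

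The wider pathway likewise gave 0 calls, as did all 35754 features tested. Over all features, 49.7% had a positive log2 fold change and 4.58% an unadjusted p under 0.05 in edgeR. Of the 53 further NRF2 targets, 49 were tested in edgeR, 23 had a positive and 26 a negative log2 fold change, with a median of -0.004, and 0 had an unadjusted p under 0.05. The summed level of all 53 ranged from 1323.3 to 1385.3 CPM in control and from 1331.0 to 1408.2 CPM in the libraries labelled SLC7A5_KD. CBR1, a carbonyl reductase, had the smallest p among them (0.0868), at 9.96 ± 1.77 and 12.35 ± 2.08 CPM (SD, n = 6 each), in edgeR. ALDH3A1, an aldehyde dehydrogenase, stood at 22.67 ± 5.39 and 27.19 ± 4.33 CPM, and IDH1, which makes NADPH from isocitrate, at 18.44 ± 4.25 and 15.04 ± 3.78 CPM (SD, n = 6 each). SRXN1, which repairs overoxidised peroxiredoxin, had a log2 fold change of 0.20 and FTL, the ferritin light chain, of -0.17. Of 17 partners and regulators, 7 were positive and 10 negative. CUL3, the scaffold of the ligase that KEAP1 serves, stood at 46.74 ± 2.91 and 53.44 ± 7.85 CPM (SD, n = 6 each), with an unadjusted p of 0.0449 and an adjusted p of 0.998 in edgeR.

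Of the 8 aldo-keto reductases outside the members, 5 had a negative and 3 a positive log2 fold change, with a median of -0.18, and 2 had an unadjusted p under 0.05. Over all features, 49.7% were positive and 4.58% had such a p. AKR1B1, the aldose reductase of the polyol pathway, stood at 13.72 ± 3.28 CPM in control against 9.71 ± 2.11 CPM in the other group (SD, n = 6 each). Its log2 fold change was -0.50, with an adjusted p of 0.998 in edgeR. AKR7A3, an aflatoxin aldehyde reductase, stood at 10.94 ± 2.75 and 7.99 ± 1.39 CPM (SD, n = 6 each), likewise with an adjusted p of 0.998 in edgeR. Over the 12 libraries, the features whose CPM followed the summed CPM of the 7 target members most closely were LOC105378997, INTS2 and LOC105372853, at a Pearson's r of 0.899, 0.899 and 0.89 on a log2 scale. They are the 3 highest of 35745 features compared, chosen for that value. They come from the same 12 libraries as the members, scaled by library total.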

How the data were processed

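RNA from 12 libraries was analysed, 6 per group, with groups taken from the labels. The authors deposited counts, all of them whole numbers, which were used as raw. GRCh38 is the build in the submitters' processing notes, which also name DESeq2 1.4.5, RSEM 1.3.1 and Bowtie2 without saying what each did. How whole numbers were made and the strand setting are not given in the sources used here, so antisense reads cannot be told apart. Members and gene lists were chosen with earlier results of these data known. The text names the members, SLC7A5, per list up to 4 genes of smallest p and up to 3 at each end of the levels per kb, and the 3 features closest in pattern. HMOX1, SLC7A11, GCLC, GAPDH, AKR1C4 and AKR1D1 were in some cases named for their roles, after values were seen.

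Groups were compared in R 4.3.3 with edgeR 4.0.16 (TMM scaling, filterByExpr, robust glmQLFit, glmQLFTest), a model of group alone, tested on simulated data first. CPM used library totals. Alternatives were RLE, upper quartile and plain totals as scaling, fits without the filter, with a minimum of 1 CPM in 6 libraries or without robust estimation, a stricter adjusted p of 0.01, DESeq2 1.42.0, limma voom (3.58.1), the replicate number as a block, rows summed by symbol and each library left out. Levels per kb used exon unions of GENCODE release 29, found for 18591 of 20056 protein-coding gene rows. They were joined by Ensembl identifier, or by symbol and chromosome where the identifier had no match. At 1896100 to 2109699 counts per library, members held 13 to 99 counts each, which sets their precision. Python 3.11.15, numpy 2.4.6, pandas 2.3.3 and scipy 1.17.1 were used.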

Additional observations from a re-analysis of the deposited data

Results flagged for a closer look

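AKR1C1 had 25.84 CPM in SLC7A5_KD replicate 5 (49 counts), while the other 5 libraries of that group had 39.08 to 45.53 CPM (79 to 93 counts). Its distance from the nearest of them was 0.672 of the group's whole range, above Dixon's critical value for 6 libraries. This was the only such library among 20 sets of 6 values, those of the 9 members and SLC7A5 in either group, and chance gives about 1 in that many.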

How the results depend on the processing

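Members called stayed at 0 under every alternative, the smallest adjusted p of a member being 0.976. Over all features, DESeq2 called 1 (ZFP91-CNTF, log2 fold change -7.12) and limma voom 1 (CNTF, 4.86) in place of 0. Leaving out a library gave 0 to 2, the 2 (CNTF at 7.76 and ZFP91-CNTF at -7.95) without control replicate 4. These 2 features, whose names overlap, went in opposite directions. They were named after their values were seen, and other settings gave 0. Replicate numbers are not tied to shared cultures. Deviations of log2 CPM from the group mean had correlations of -0.0113 to 0.0232 between same-numbered libraries. In these deviations, 1 of 6 was closest to its own number. With the replicate number as a block, 0 genes and 0 members were called and SLC7A5 had a log2 fold change of 0.168. Of 198 values of members under alternatives, 25 changed sign, 24 of them on leaving out a library. KEAP1 stood at 0.008 in limma voom, and without one library it ranged from -0.124 to 0.076. The ranges were -0.029 to 0.082 for AKR1B10, -0.029 to 0.077 for AKR1C2, -0.027 to 0.227 for AKR1C3 and -0.08 to 0.072 for TXNRD1. The median level per kb of the members, relative to all protein-coding genes, was 0.965 with the longest transcript and 0.909 with RefSeq-matched exons (added after the data were seen), and 0.743 to 0.765 without one library. These lengths leave out exons that the union holds.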
